A study of Mus musculus with 27 samples.

Results

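Postnatal development of the mouse cerebellum was followed here from day 4 (P4) to day 10 (P10) after birth. The comparison set the 3 cerebellum pools of P10 against the 3 cerebellum pools of P4, chosen by their region and age labels, so that 6 of the 27 pools of the series entered it. In each pool CT values were measured by quantitative PCR on a synaptic plasticity array of 96 wells, of which 84 hold pathway genes and all 84 were tested. All pools came from outbred Swiss Webster mice that were born to germ-free dams and raised in isolators, with 1 isolator for each treatment. Germ-free mice (GF) were given sterile PBS by mouth from the first day after birth. Conventionalized mice (CONV) received a complex microbiota through fecal slurry given to their dams and through bedding, and the pups were given PBS in the same way. Mice of the remaining group (BIF) were given 4 *Bifidobacterium* species, which were *B. dentium*, *B. bifidum*, *B. breve* and *B. longum* subsp. *infantis*. Each pool held RNA of 5 male mice, 2 µg from each, so the spread between mice was not measured. The 3 pools of an age were the 3 treatments, which served as 3 pools a side and were paired by treatment. Every p-value below therefore rests on how far the change from P4 to P10 differed between the treatment pairs. It does not measure the spread between like animals. All 3 pools of P4 were run on plate 7 and all 3 of P10 on plate 3, so age and plate cannot be told apart.

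In rodents the days between these ages are a period of rapid cerebellar growth. Granule cell precursors multiply in the external granular layer, leave the cell cycle and migrate inward past the Purkinje cells, while Purkinje cells extend their dendrites and receive climbing and parallel fibre synapses. Glutamate carries most of this synaptic traffic. It acts through NMDA and AMPA receptors, which are ion channels, and through metabotropic receptors, which act through G proteins. Kinases, phosphatases, cAMP and nitric oxide relay receptor activity inside the cell, immediate early genes answer it in the nucleus, and neurotrophins support the growing neurons. The array samples each of these groups.

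Throughout, the level of a gene is a log2 value, the mean CT of the 4 reference wells (*B2m*, *Gapdh*, *Gusb* and *Hsp90ab1*) less the CT of the gene, so that an increase of 1 is a doubling. Gene names follow the order of the array, and 22 of the 84 rest on that order alone, among them *Gria1*, *Gria3*, *Gria4*, *Igf1* and *Reln*. Each assay has its own efficiency, so a difference in level between genes was not read as a difference in RNA. Sums of levels over a list weigh its assays unequally for the same reason and serve as description. The region label was first checked with marker genes. *Camk2a*, a kinase of forebrain excitatory neurons, lay between -4.38 and -2.91 in the 6 cerebellum pools and between -0.31 and 3.06 in the 12 cortex and hippocampus pools of the same ages. *Gabra5*, a GABA-A receptor subunit abundant in hippocampus, lay between -6.68 and -2.76 in cerebellum and between -0.89 and 0.04 in the other regions. The cerebellum pools did not overlap with the forebrain pools in these markers, and *Nptx2* also lay below every forebrain pool. *Arc* and *Bdnf*, the others of 5 forebrain-enriched genes, overlapped with cortex pools of P4 and lay below all forebrain pools at P10. Of the granule cell markers, *Grin2c* lay above the forebrain pools of the same age at P4 and at P10, while *Grm4* and *Reln* overlapped with them at P4 and lay above them at P10.

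The GF pool of P4 stood apart from the other pools of its age. Its *Gabra5* level was -2.76, against -5.41 and -5.03 in the colonized pools (CONV and BIF), and its *Bdnf* level was -5.86 against -7.70 and -7.60. The levels of the 5 forebrain-enriched genes (*Arc*, *Bdnf*, *Camk2a*, *Gabra5* and *Nptx2*) combined, as the sum of 2 to the power of each level in percent of the reference mean, came to 30.4%, 11.2% and 11.1% in the GF, CONV and BIF pools of P4. At P10 this sum was 20.6%, 16.8% and 15.8% in the same order, whereas it ranged from 142% to 187% in the cortex pools of P4. *Gabra5* had the earliest CT of the list in the GF pool of P4 and *Camk2a* in the other 5 cerebellum pools, and no gene of the list was at the CT limit of 35. In the GF pool of P4, 24 of 84 genes lay at least 1.5-fold from the mean of the other pools of P4, and 20 of these were higher. The same count was 9 for the CONV and 12 for the BIF pool. Its mean reference CT of 22.08 was also later than the 21.46 and 21.32 of the CONV and BIF pools, and its reverse transcription control was at a mean CT of 21.42 against 21.14 and 21.16. The GF pool was the only one of its treatment at this age, so treatment and other differences of the pool cannot be told apart. What these differences contribute to the results was not tested, and results that this pool moved by over 1.5 times are given with and without the GF pair.

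**Figure D1:**
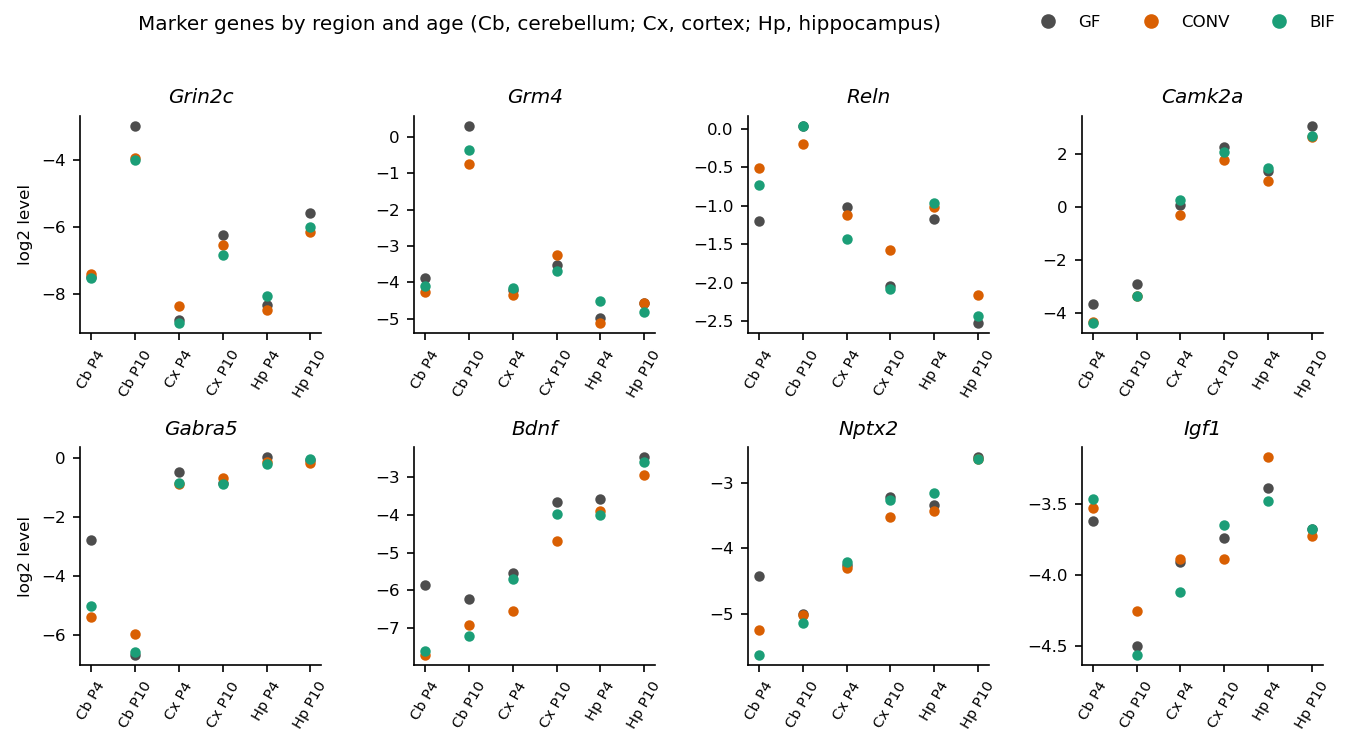
Log2 level of 8 marker genes (y axis, relative to the mean of 4 reference genes) in each pool of cerebellum, cortex and hippocampus at P4 and P10 (x axis), with 1 point for each treatment. *Camk2a* and *Gabra5* lay lower in every cerebellum pool than in any forebrain pool, and the GF pool of P4 had the highest cerebellar *Gabra5* level, -2.76.

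More genes rose than fell. Of the 84 genes, 40 were higher at P10 (47.6%) and 5 were lower (5.95%) with limma at an adjusted p below 0.05, and 39 did not pass. The size of this split depended on the reference. With *Gapdh* alone as the reference, 15 genes were called higher and 7 lower; with the median CT of the 84 genes, 14 and 12; and with the PCR control wells, 23 and 10. The share of calls that were higher was 88.9% with the 4 reference genes, 68.2% with *Gapdh*, 53.8% with the median and 69.7% with the PCR control. The median log2 change of all 84 genes was 0.48 with the 4 reference genes, and it shifted by -0.32, -0.50 and -0.19 with these other references, in the same order. Changes are therefore also given relative to 0.48, the median. The median reference removes the shared shift of the 84 genes by construction (median change -0.022), so it works against an uneven split. The mean of 5 reference genes, which adds *Actb*, gave 40 and 5. No gene was called in opposite directions with different references. The reference genes themselves did not move together. *Gapdh* was at 1.95, 2.04 and 2.10 in the GF, CONV and BIF pools of P4 and at 2.53, 2.28 and 2.24 at P10, relative to the mean of 4 that contains it. *Gusb* went the other way, from -3.70, -3.77 and -3.67 to -4.08, -3.97 and -3.92.

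**Figure D2:**
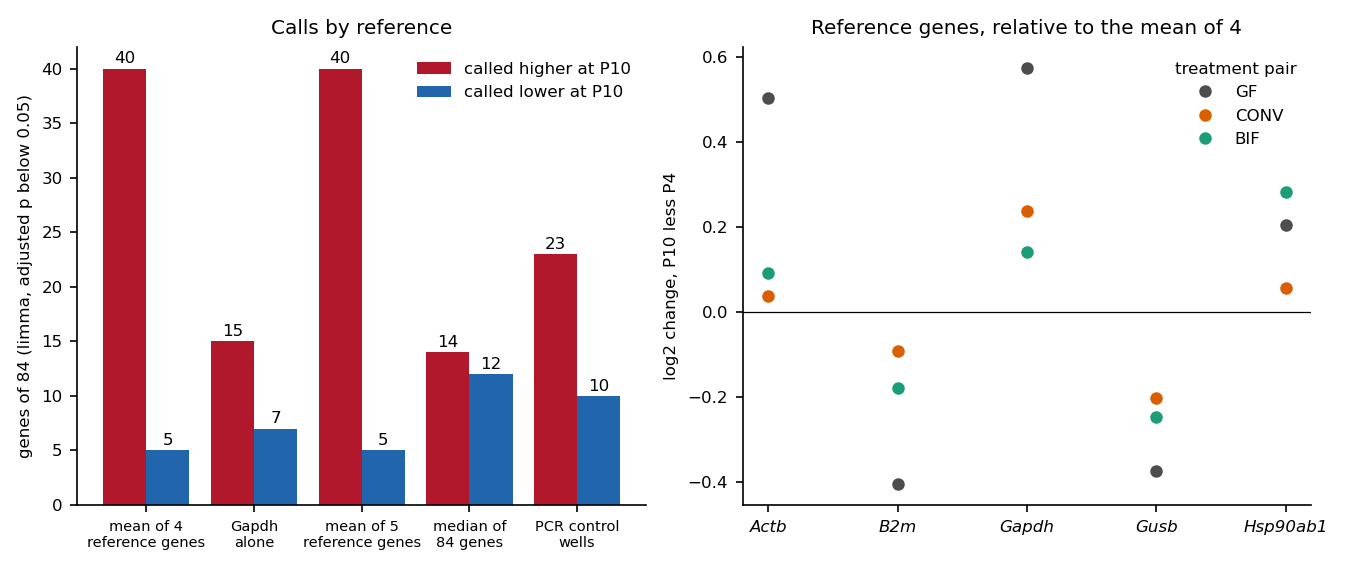
Left, number of the 84 genes called higher or lower at P10 with each of 5 references (limma, adjusted p below 0.05). Right, log2 change of the reference genes from P4 to P10 in each treatment pair, relative to the mean of *B2m*, *Gapdh*, *Gusb* and *Hsp90ab1*; *Gapdh* was higher and *B2m* and *Gusb* lower at P10 in all 3 pairs.

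Called with each of the 5 references were 14 genes that rose (16.7%), among them *Adam10*, *Adcy1*, *Egr4*, *Gria4*, *Grin1*, *Grin2a*, *Grin2c*, *Grm4*, *Nos1*, *Ntf3*, *Ppp1r14a* and *Ppp3ca*, and 5 that fell (5.95%), namely *Grm3*, *Igf1*, *Ngfr*, *Ntf5* and *Pcdh8*. The other 26 calls of a rise were lost with at least 1 reference. Leaving out the CONV pair reduced the calls from 40 to 14 higher and from 5 to 4 lower, and leaving out the BIF pair gave 26 and 6. Without the GF pair 44 genes were called higher and 6 lower. Of these 19 genes, *Adam10*, *Egr4* and *Ngfr* lost the call without the CONV pair and the others kept it without each pair. Of the remaining 26 called genes, *Egr1* and *Gria3* kept it without each pair. As a description without a test, 23 genes were at least 1.5-fold higher in every pair (27.4%) and 3 were at least 1.5-fold lower (3.57%), namely *Grm3*, *Igf1* and *Ngfr*. The pools of P10 lay wholly above those of P4 for 49 genes (58.3%) and wholly below them for 9 (10.7%).

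**Figure D3:**
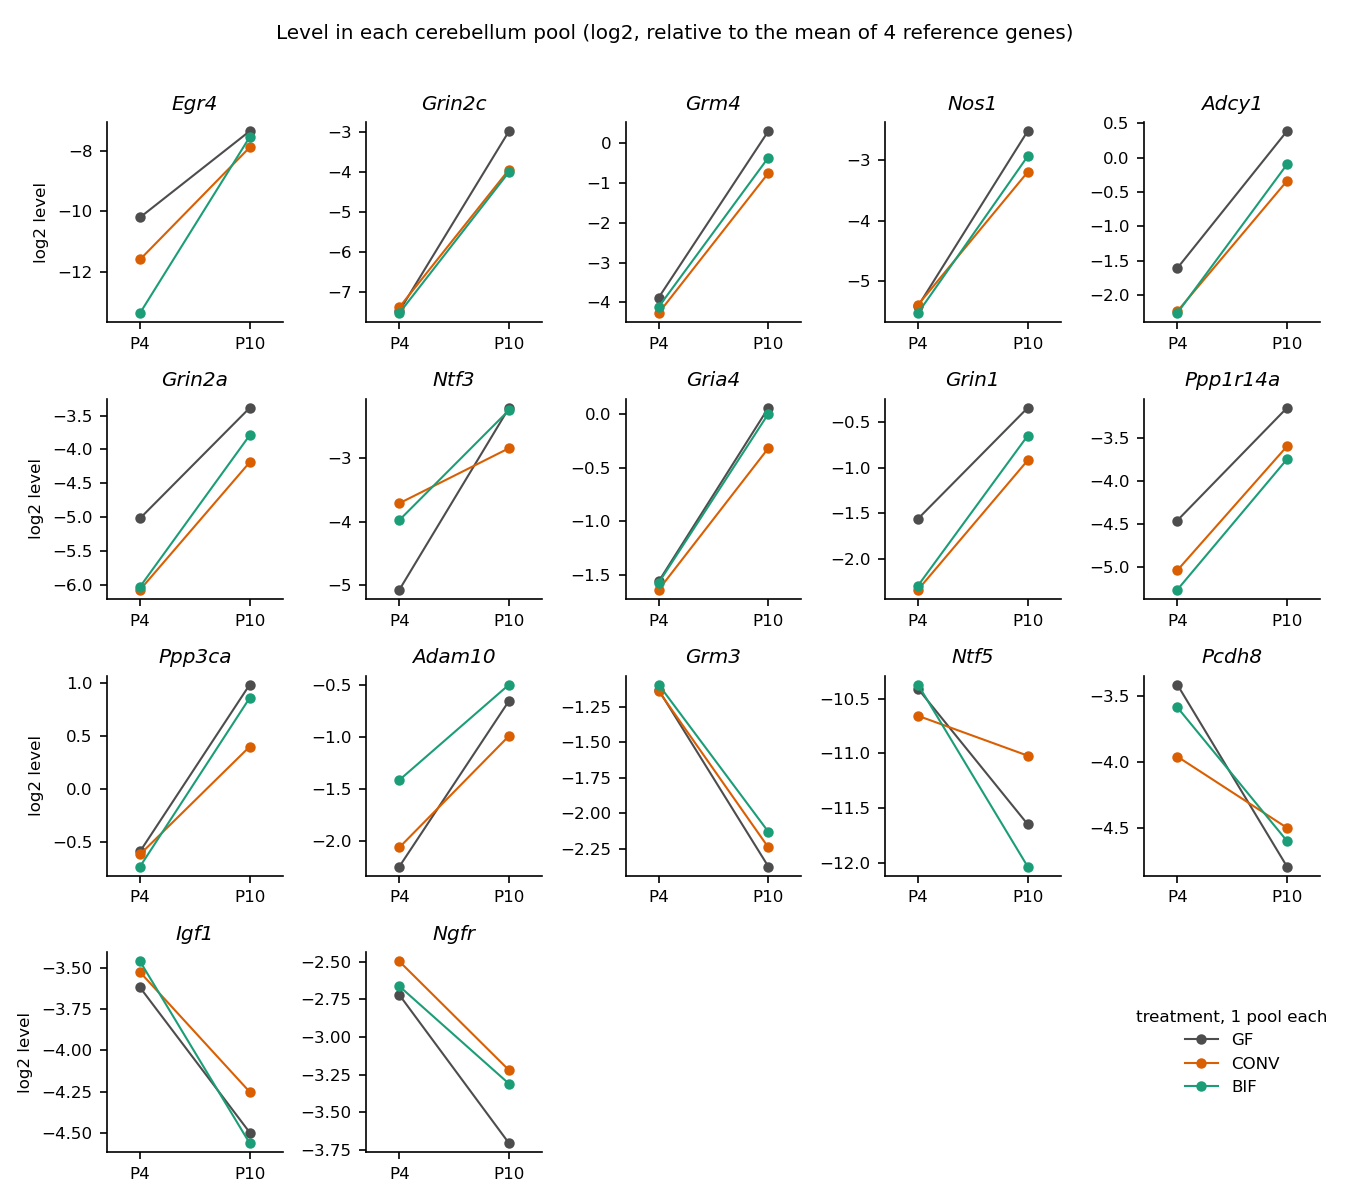
Log2 level (y axis, relative to the mean of 4 reference genes, scaled separately for each gene) at P4 and P10 of 17 of the genes called with each of 5 references. Each line joins the P4 and P10 pools of 1 treatment; in all 17 genes the 3 pools of one age lay apart from the 3 of the other.

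Among the NMDA receptor subunits the change from P4 to P10 was largest for *Grin2c*, which encodes the GluN2C subunit that mature granule cells acquire. Its level was -7.48, -7.39 and -7.53 in the GF, CONV and BIF pools of P4 and -2.97, -3.93 and -3.99 in those of P10. All P10 pools were far above all P4 pools, and the GF pool was the highest at P10. The rise was 14.3-fold (log2 3.84 ± 0.26 SE, adjusted p = 0.00236), or 3.36 above the median of the 84 genes. *Grin2a*, the GluN2A subunit that enters synapses as they mature, was at -5.02, -6.08 and -6.03 at P4 and at -3.39, -4.19 and -3.79 at P10. The ages did not overlap, and the GF pool was the highest at each of them. *Grin2a* rose 3.79-fold (log2 1.92 ± 0.16 SE, adjusted p = 0.00301). *Grin1*, the subunit that every NMDA receptor contains, was at -1.56, -2.34 and -2.29 at P4 and at -0.35, -0.92 and -0.65 at P10. It rose 2.69-fold (log2 1.43 ± 0.14 SE, adjusted p = 0.0043) in 3 of 3 pairs. *Grin2b*, the GluN2B subunit that dominates before synapses mature, rose 1.85-fold (adjusted p = 0.00895); the call was lost with *Gapdh* (log2 0.57) and with the median reference (0.39). *Grin2d* did not pass, with a log2 change of -0.57 (adjusted p = 0.155) and pair changes of -1.31, -0.09 and -0.30, but it was called lower with the median reference and with the PCR control. Without the GF pair the change was -0.20. Of the 5 NMDA receptor genes 4 were thus higher and none lower with the 4 reference genes, beside 47.6% higher among all genes, and the median change was 1.43 against 0.48.

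All 4 AMPA receptor genes were called higher, beside 47.6% of all genes, with a median change of 1.01, and each stayed above 0 with each of the 5 references. The count was 3 with the PCR control, 2 with *Gapdh* or without the CONV pair, and 1 with the median reference. *Gria4*, whose subunit is prominent in cerebellar granule cells and Bergmann glia, was at -1.56, -1.64 and -1.57 at P4 and at 0.06, -0.32 and 0.00 at P10. The 3 pools of P4 lay within 0.1 of each other and well under those of P10. *Gria4* rose 2.83-fold (adjusted p = 0.00301), with pair changes of 1.61, 1.32 and 1.57. *Gria1* rose 2.07-fold (adjusted p = 0.0127), *Gria3* 1.97-fold (adjusted p = 0.00529) and *Gria2*, whose subunit makes the channel impermeable to calcium, 1.56-fold (adjusted p = 0.034). Of these, *Gria4* alone was called with each reference, while *Gria1* was called with 4 of them, *Gria3* with 3 and *Gria2* with 2.

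Metabotropic glutamate receptors differed in direction. *Grm4*, the presynaptic receptor of parallel fibre terminals and a product of granule cells, was at -3.88, -4.27 and -4.11 at P4 and at 0.31, -0.75 and -0.36 at P10. The ages were separated by more than 3 log2 units. *Grm4* rose 14.1-fold (log2 3.82 ± 0.17 SE, adjusted p = 0.0017), with pair changes of 4.19 in GF, 3.52 in CONV and 3.75 in BIF. *Grm3*, a receptor of glia and of some interneurons, was at -1.13, -1.14 and -1.09 at P4 and at -2.38, -2.24 and -2.13 at P10. *Grm3* fell 2.19-fold (log2 -1.13 ± 0.11 SE, adjusted p = 0.00466) and was called lower with each of the 5 references. *Grm2*, *Grm5*, *Grm7* and *Grm8* did not pass, with log2 changes of 0.05, 0.41, -0.47 and -0.73. *Grm8* was called lower with 3 of the 5 references (*Gapdh*, the median and the PCR control) and *Grm7* with 2 (the median and the PCR control). Without the GF pair the change of *Grm5* was 0.59 and passed. Without it *Grm2* was at 0.010, *Grm7* at -0.21 and *Grm8* at -0.43. The pair changes of *Grm8* were -1.34 in GF, -0.07 in CONV and -0.78 in BIF.

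Genes that mark granule cells rose in the same interval. All 3 granule cell markers were called higher (47.6% of all genes were), namely *Grin2c*, *Grm4* and *Reln*, which encodes the secreted protein that guides migrating neurons. *Reln* was called with 2 of the 5 references and not without the CONV or the BIF pair, and the others were called in each case. *Grin2c* also rose from P4 to P10 in cortex and hippocampus, with mean log2 changes of 2.15 and 2.38. The summed level of the 3 was 50.9%, 75.6% and 66.5% of the reference mean in the GF, CONV and BIF pools of P4 and 239%, 153% and 186% at P10. *Reln* had the earliest CT of the 3 in every P4 pool. The tissue was measured whole, and more cells of a type cannot be told apart from more RNA per cell. The microglial pair *Igf1* and *Tnf* had a summed level of 8.15%, 8.72% and 9.14% at P4 and 4.45%, 5.34% and 4.28% at P10. *Igf1*, which neurons make as well, gave nearly all of each sum, because *Tnf* came far later in every pool. *Tnf* was at the CT limit of 35 in the GF pool of P10, where its level of -13.08 is therefore an upper bound. On its own *Tnf* did not pass, with pair changes of -0.26 in GF (also an upper bound), 0.76 in CONV and -0.82 in BIF. No test was made on these sums.

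*Nos1*, the neuronal nitric oxide synthase, was at -5.41, -5.39 and -5.52 at P4 and at -2.53, -3.20 and -2.94 at P10. The ages did not overlap, and the pools of P4 were nearly equal. *Nos1* rose 5.86-fold (log2 2.55 ± 0.18 SE, adjusted p = 0.00236). *Adcy1*, the adenylyl cyclase that calcium and calmodulin activate, was at -1.61, -2.24 and -2.26 at P4 and at 0.39, -0.34 and -0.10 at P10. It rose 4.05-fold (log2 2.02 ± 0.12 SE, adjusted p = 0.00236), and its 3 pair changes lay between 1.90 and 2.16.

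*Ppp1r14a*, which encodes an inhibitor of protein phosphatase 1, was at -4.46, -5.04 and -5.26 at P4 and at -3.16, -3.60 and -3.75 at P10. It rose 2.67-fold (log2 1.42 ± 0.11 SE, adjusted p = 0.00301), by a like amount in the 3 pairs. *Ppp3ca*, the catalytic subunit of the calcium-dependent phosphatase calcineurin, was at -0.59, -0.62 and -0.73 at P4 and at 0.99, 0.40 and 0.86 at P10. It rose 2.63-fold (log2 1.40 ± 0.17 SE, adjusted p = 0.00676). Of the 5 genes of the phosphatase list, which includes the inhibitor gene *Ppp1r14a*, 4 were called higher, beside 47.6% of all genes. The count was 2, *Ppp1r14a* and *Ppp3ca*, with *Gapdh*, the median reference or the PCR control and without the CONV or the BIF pair. The rises of *Ppp1cc* and *Ppp2ca*, at 1.45-fold each, lay close to the median of all genes. The kinase list had a median of 0.48, equal to that of all genes, and with the median reference the changes of *Prkca* and *Prkg1* turned to -0.058 and -0.022. *Camk2a*, the kinase of forebrain synapses, rose 1.88-fold (adjusted p = 0.00895). In the cAMP and G protein list *Adcy1* and *Gnai1* (1.80-fold, adjusted p = 0.00895) were higher and 4 of 6 genes did not pass, where 47.6% of all genes were higher. *Cnr1*, the presynaptic cannabinoid receptor, rose 1.92-fold (adjusted p = 0.018). Among scaffold and trafficking proteins *Dlg4* (PSD-95), *Homer1* and *Pick1* (whose well could not be told apart from that of *Pim1*) were called higher, by 1.48-fold to 1.70-fold, and the other 3 of 6 did not pass, a share near the 47.6% of all genes. None of these 3 calls held with *Gapdh*, with the median reference, or without the CONV or the BIF pair.

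Of the 9 immediate early genes, 7 were called higher and none lower, with a median change of 0.82, beside 40 of all 84 genes called higher (47.6%) and a median of 0.48. The count was 4 of 9 with the PCR control, and 1 of 9 with *Gapdh*, with the median reference or without the CONV pair. *Egr4*, a zinc finger transcription factor, had the largest mean change of the called genes, but its rank rests on the BIF pair. Its level was -10.20, -11.59 and -13.35 at P4 and -7.36, -7.89 and -7.55 at P10. The pools of P10 lay close together while those of P4 spread over 3 log2 units at late CTs. *Egr4* rose 17.3-fold (log2 4.12 ± 0.62 SE, adjusted p = 0.0103), with a 95% interval from 2.40 to 5.83, and the call was lost without the CONV pair (log2 4.32). Its CT was 34.67 in the BIF pool of P4, close to the limit. Without the BIF pair *Egr4* was at 3.27, below *Grin2c* (3.99) and *Grm4* (3.85), and without the GF pair at 4.75. In the GF pair its change of 2.85 was also below those of *Grin2c* (4.52) and *Grm4* (4.19). In the CONV pair its change of 3.70 was above those of *Grin2c* (3.46) and *Grm4* (3.52). *Fos* was at -5.79, -5.77 and -6.32 at P4 and at -5.20, -4.55 and -5.28 at P10, and rose 1.93-fold (adjusted p = 0.0143). *Egr1* (1.90-fold), *Egr3* (1.80-fold), *Arc* (1.77-fold), *Nr4a1* (1.72-fold) and *Junb* (1.69-fold) were also called. Relative to the median of all genes these 6 rose by only 0.28 to 0.47, and *Egr4* alone was called with each reference. *Egr2* and *Jun* did not pass. Promoters of this list were searched for the core of the cAMP response element. RefSeq promoter windows of 300 bases, from 250 before to 50 after the start of the gene (GRCm38.p6), were given for 55 of the 84 array genes and for 6 of the 9 immediate early genes. The 5 letters TGACG, searched on both strands (CGTCA on the other), occurred in 5 of these 6 genes and in 25 of the 55. A gene was counted if any of its windows held them. Of all 32851 promoter windows, each counted singly, 20.8% held them, so this share is not like for like with the gene counts. The 4 sequences below are those of called genes and were picked for holding the letters. Capitals mark the matches, and the sequences read 5′ to 3′ on the strand of the gene.
Fos (chr12:85473640-85473939, plus strand): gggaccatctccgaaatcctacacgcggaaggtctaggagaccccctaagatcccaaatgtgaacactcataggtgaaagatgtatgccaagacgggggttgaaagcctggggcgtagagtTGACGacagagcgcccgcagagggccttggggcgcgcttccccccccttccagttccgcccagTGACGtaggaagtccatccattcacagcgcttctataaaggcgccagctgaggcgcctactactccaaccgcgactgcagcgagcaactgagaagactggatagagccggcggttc
Junb (chr8:84978699-84978998, minus strand): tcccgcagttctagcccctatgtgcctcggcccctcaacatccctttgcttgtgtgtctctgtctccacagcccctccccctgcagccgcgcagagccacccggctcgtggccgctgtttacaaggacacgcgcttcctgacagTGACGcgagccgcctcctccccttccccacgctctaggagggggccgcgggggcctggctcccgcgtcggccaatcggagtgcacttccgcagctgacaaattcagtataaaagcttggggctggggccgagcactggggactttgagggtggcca
Nr4a1 (chr15:101266596-101266895, plus strand): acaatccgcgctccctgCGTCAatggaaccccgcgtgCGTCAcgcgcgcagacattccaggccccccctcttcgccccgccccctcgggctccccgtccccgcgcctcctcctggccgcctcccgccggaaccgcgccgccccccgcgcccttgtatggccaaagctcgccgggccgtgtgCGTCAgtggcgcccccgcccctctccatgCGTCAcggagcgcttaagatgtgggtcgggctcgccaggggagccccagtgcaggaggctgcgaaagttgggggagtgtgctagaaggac
Egr4 (chr6:85513540-85513839, minus strand): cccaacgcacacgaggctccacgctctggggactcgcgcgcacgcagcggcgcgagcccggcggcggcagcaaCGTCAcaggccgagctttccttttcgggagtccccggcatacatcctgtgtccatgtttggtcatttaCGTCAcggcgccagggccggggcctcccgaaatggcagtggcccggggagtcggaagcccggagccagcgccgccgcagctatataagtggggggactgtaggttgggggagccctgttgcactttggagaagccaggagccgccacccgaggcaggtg
*Fos* held 2 matches, which began 129 and 66 bases before the start, *Junb* held 1, *Nr4a1* 4 and *Egr4* 2. The letters are a description of the window, and binding was not measured.

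No gene of the other list of activity-regulated genes (*Bdnf*, *Cebpb*, *Cebpd*, *Crem*, *Inhba*, *Klf10*, *Nptx2*, *Pim1*, *Plat* and *Rgs2*) was called among its 10, and its median of 0.11 (0.20 without the GF pair) lay below that of all genes. *Bdnf*, the neurotrophin that activity induces, was at -5.86, -7.70 and -7.60 at P4 and at -6.23, -6.92 and -7.20 at P10. The ages overlapped, because the GF pool of P4 was the highest of the 6. The log2 change of *Bdnf* was 0.27 (adjusted p = 0.419). Without the GF pair it was 0.59 and passed. It was 0.019 without the CONV pair and 0.21 without the BIF pair, and passed in neither case.

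The neurotrophins and their receptors moved in both directions. *Ntf3*, neurotrophin 3, which granule cells make, was at -5.07, -3.71 and -3.97 at P4 and at -2.21, -2.84 and -2.24 at P10. The ages did not overlap, and the GF pool was the lowest at P4. *Ntf3* rose 3.53-fold (log2 1.82 ± 0.42 SE, adjusted p = 0.026), by 2.87 in GF, 0.87 in CONV and 1.73 in BIF. *Ntrk2*, the receptor of BDNF, rose 1.61-fold (adjusted p = 0.0103), with nearly equal pair changes of 0.68, 0.68 and 0.70. *Ngfr*, the p75 receptor found on proliferating granule cell precursors and immature Purkinje cells, was at -2.72, -2.50 and -2.66 at P4 and at -3.71, -3.22 and -3.31 at P10. It fell 1.72-fold (log2 -0.79 ± 0.13 SE, adjusted p = 0.0121) in 3 of 3 pairs, and the call was lost without the CONV pair (log2 -0.82). *Ntf5*, neurotrophin 4, was at -10.41, -10.66 and -10.37 at P4 and at -11.65, -11.02 and -12.03 at P10. It fell 2.12-fold (log2 -1.09 ± 0.29 SE, adjusted p = 0.0362) at CTs near the limit of detection.

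*Igf1*, the growth factor made in the young brain by neurons and microglia, was at -3.62, -3.53 and -3.46 at P4 and at -4.50, -4.25 and -4.56 at P10. All P10 pools were lower than all P4 pools. *Igf1* fell 1.86-fold (log2 -0.90 ± 0.13 SE, adjusted p = 0.00997). *Pcdh8*, an activity-induced protocadherin, was at -3.41, -3.96 and -3.58 at P4 and at -4.80, -4.50 and -4.60 at P10. It fell 1.97-fold (log2 -0.98 ± 0.20 SE, adjusted p = 0.0192), least in the CONV pair (-0.54). In the same list of 9 adhesion and matrix genes *Adam10*, the protease that sheds cadherins and Notch, was at -2.24, -2.06 and -1.41 at P4 and at -0.66, -0.99 and -0.50 at P10. *Adam10* rose 2.28-fold (log2 1.19 ± 0.18 SE, adjusted p = 0.0103), and the call was lost without the CONV pair (log2 1.25). *Reln* (1.71-fold) and *Timp1* (1.39-fold), an inhibitor of matrix proteases, were also called, and *Timp1* turned to -0.028 with the median reference. None of the 4 genes of the NF-kappa-B and cytokine list was called, beside 47.6% of all genes called higher and 5.95% called lower.

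*Gabra5* showed how far 1 pool can set a result. It was at -2.76, -5.41 and -5.03 at P4 and at -6.68, -5.96 and -6.58 at P10. The ages did not overlap, but the GF pool of P4 stood far above the others. The log2 change was -2.01 ± 0.71 SE and did not pass with the 4 reference genes (adjusted p = 0.0735) or the mean of 5, while *Gabra5* was called lower with the other 3 references. Without the GF pair it was smaller, -1.05, and passed, as it did without the BIF pair (-2.23) but not without the CONV pair (-2.73). The levels of *Bdnf*, *Camk2a*, *Arc* and *Nptx2* were also highest in that pool among those of P4. Germ-free treatment and other differences of that pool, such as a part of other tissue, cannot be told apart and were not tested.

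**Figure D4:**
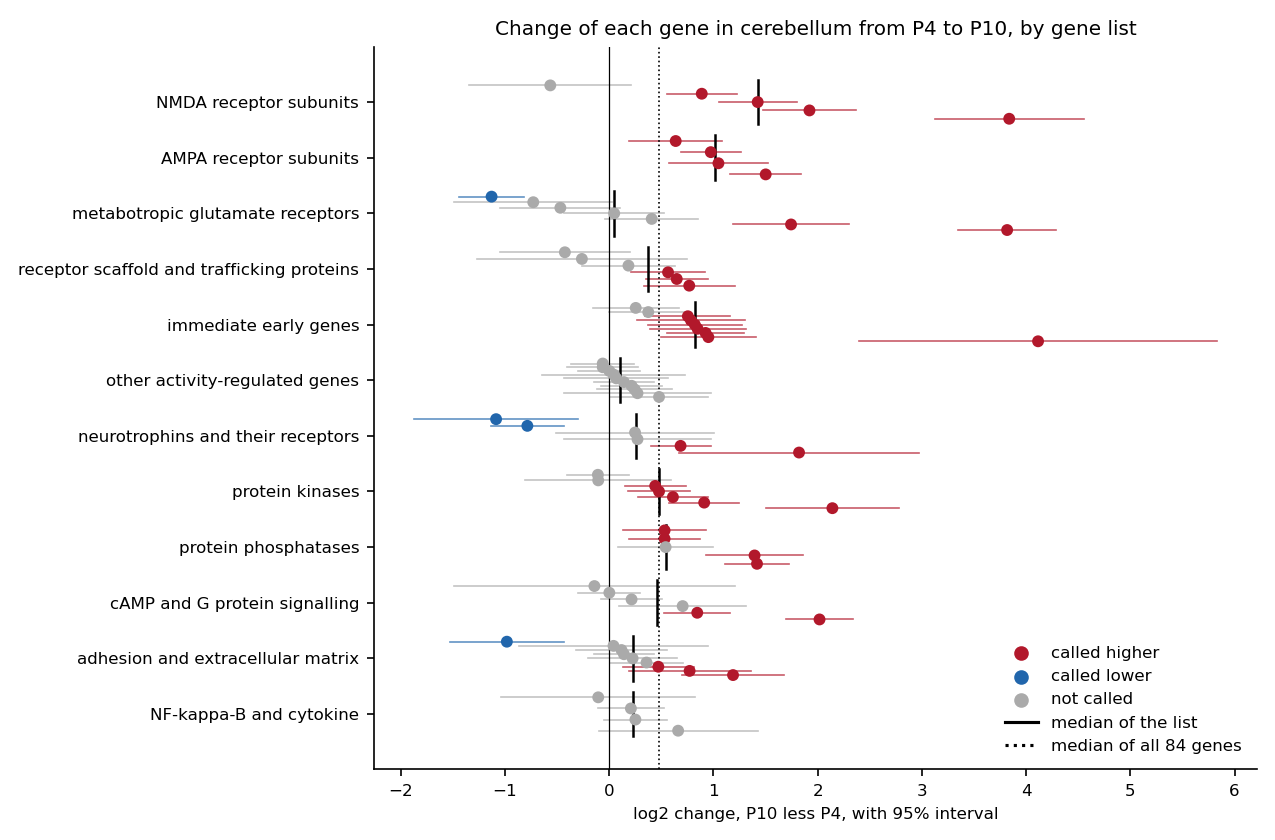
Log2 change from P4 to P10 (x axis, P10 less P4, with 95% interval from limma) of each gene in 12 gene lists (y axis); some genes are in more than 1 list. Solid lines mark the median of each list, and the dotted line marks the median of all 84 genes, 0.48.

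The medians of several lists changed sign with the reference, which for the median reference follows in part from its construction. The metabotropic receptor, scaffold, neurotrophin, kinase, cAMP and G protein, adhesion, NF-kappa-B and other activity-regulated lists had medians above 0 with the 4 reference genes and below 0 with the median reference. The neurotrophin, adhesion, NF-kappa-B, metabotropic receptor and other activity-regulated lists were also below 0 with *Gapdh*, the last pair with the PCR control too. Of the 5 forebrain-enriched genes *Arc* and *Camk2a* were called higher and none lower with the 4 reference genes, where 47.6% of all genes were higher. There were 3 higher and 1 lower without the GF pair, with a median of 0.59. With *Gapdh* or the median reference none of the 5 was called higher and *Gabra5* was called lower. With all pairs the median of these 5 was 0.27, and it was -0.23 with the median reference and -0.047 with *Gapdh*. The medians of the NMDA, AMPA, immediate early, phosphatase and granule lists were above 0 with each reference.

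The 3 treatment pairs had the same sign of change for 66 of the 84 genes, 56 upward and 10 downward, and the median change was 0.55 in GF, 0.43 in CONV and 0.49 in BIF. In 10 genes the GF pair moved opposite to both colonized pairs, among them *Adcy8*, *Bdnf*, *Camk2g*, *Cebpb*, *Egr2*, *Inhba*, *Mmp9*, *Nptx2* and *Synpo*. The CONV pair was alone in its direction for 6 genes and the BIF pair for 2. With 1 pool in each treatment and age, differences between treatments were not tested.

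Changes in cerebellum were next set against those in cortex and hippocampus, by a limma fit of the 9 differences between P10 and P4 (3 treatments in 3 regions). The change was higher in cerebellum than in cortex for 38 genes (45.2%) and lower for 13 (15.5%). Against hippocampus it was higher for 41 (48.8%) and lower for 10 (11.9%). Both comparisons use the same cerebellum pools. The median change was 0.48 in cerebellum, 0.04 in cortex and 0.00 in hippocampus. With the median CT as the reference, the split was 18 higher and 21 lower against cortex (46.2% higher instead of 74.5%) and 28 and 15 against hippocampus (65.1% instead of 80.4%). The median reference removes the shared shift within each region, so it works against an uneven split by construction. With the PCR control the split was 19 and 12 against cortex (61.3%) and 14 each way against hippocampus. The differences of *Nos1*, *Ntf3*, *Grm4* and *Adcy1* from both regions, and that of *Cnr1* from cortex, passed with each of the 5 references and without each pair. The pools of P4 cortex lay on plates 4, 5 and 6 and those of P4 hippocampus on plates 1, 2 and 3, with P10 on plates 2 and 1.

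*Nos1* had the largest difference from cortex. Its pair changes were 2.89, 2.19 and 2.58 in cerebellum and -1.82, -0.69 and -0.58 in cortex, in the order GF, CONV and BIF. The gene went up in every cerebellum pair and down in every cortex pair. The difference was 3.58 ± 0.37 SE (adjusted p = 8.06e-05) against cortex and 3.09 ± 0.37 SE (adjusted p = 0.000256) against hippocampus. *Ntf3* also went in opposite directions, from 2.87, 0.87 and 1.73 in cerebellum to -2.25, -0.98 and -1.32 in cortex and -0.72, -1.24 and -0.35 in hippocampus. Its difference was 3.34 against cortex (adjusted p = 0.000727, or 2.45 without the GF pair) and 2.59 against hippocampus (adjusted p = 0.00329). *Grm4* changed by 0.67, 1.10 and 0.44 in the cortex pairs and by 0.41, 0.57 and -0.30 in the hippocampus pairs, far less than in cerebellum. The difference was 3.08 against cortex (adjusted p = 5.71e-05) and 3.59 against hippocampus (adjusted p = 1.15e-05). *Grin2c* rose in every forebrain pair as well, by 1.84 to 2.56 in cortex and by 2.06 to 2.77 in hippocampus. Its cerebellum change was higher by 1.69 than in cortex (adjusted p = 0.00189) and by 1.46 than in hippocampus (adjusted p = 0.00446). *Adcy1* had pair changes between -0.27 and 0.22 in the forebrain, and differed by 2.02 from cortex and 2.13 from hippocampus. *Cnr1*, which rose in cerebellum, was lower at P10 in each forebrain pair, and differed by 1.86 from cortex. *Egr4* differed from hippocampus by 2.37 (adjusted p = 0.00979), a call that was lost without the CONV pair and was at 1.46 without the BIF pair, and its difference from cortex did not pass.

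Activity-regulated genes differed between regions in both directions. Of the 9 immediate early genes, 3 had a lower change in cerebellum than in cortex and none a higher one, and against hippocampus 1 was lower and 1 higher. Over all 84 genes 15.5% were lower and 45.2% higher against cortex, and 11.9% and 48.8% against hippocampus. Of the 10 other activity-regulated genes, 2 were lower and 3 higher against cortex (*Crem*, *Inhba* and *Pim1*), and 3 were lower and 3 higher against hippocampus. The lists as such were not tested. *Arc*, the cytoskeletal immediate early gene, changed by 0.49, 1.10 and 0.88 in cerebellum and by 3.56, 2.46 and 1.66 in cortex. No cerebellum pair reached a cortex pair. The difference was -1.74 ± 0.44 SE against cortex (adjusted p = 0.00826, or -1.07 without the GF pair) and -1.32 against hippocampus (adjusted p = 0.0244). *Bdnf* changed by 1.87, 1.87 and 1.73 in cortex, and its difference was -1.55 (adjusted p = 0.00122) against cortex and -0.89 (adjusted p = 0.0171) against hippocampus. *Egr1* differed by -1.33 from cortex (adjusted p = 0.00174), and its difference of -0.42 from hippocampus did not pass. *Synpo*, which encodes the spine apparatus protein synaptopodin, differed by -0.78 from hippocampus (adjusted p = 0.00446). *Gabra5* changed little in the forebrain, between -0.36 and 0.21 in every pair, and differed by -1.94 from cortex (adjusted p = 0.034) and -2.01 from hippocampus (adjusted p = 0.0262). Without the GF pair these differences were smaller, -1.13 and -1.11, and still passed. *Grm8* differed by -1.19 from cortex (adjusted p = 0.00885). *Ntf5*, which fell in cerebellum, changed by 0.02, 1.31 and 2.01 in hippocampus, a difference of -2.20 (adjusted p = 0.0125, or -1.46 without the BIF pair). Leaving out a pair ended the call for *Gabra5* in both comparisons (BIF), for *Grm8* against cortex (GF or BIF), and against hippocampus for *Ntf5* (BIF), *Arc* (CONV or BIF), *Bdnf* (GF or BIF) and *Synpo* (CONV). Each of these differences kept its sign.

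**Figure D5:**
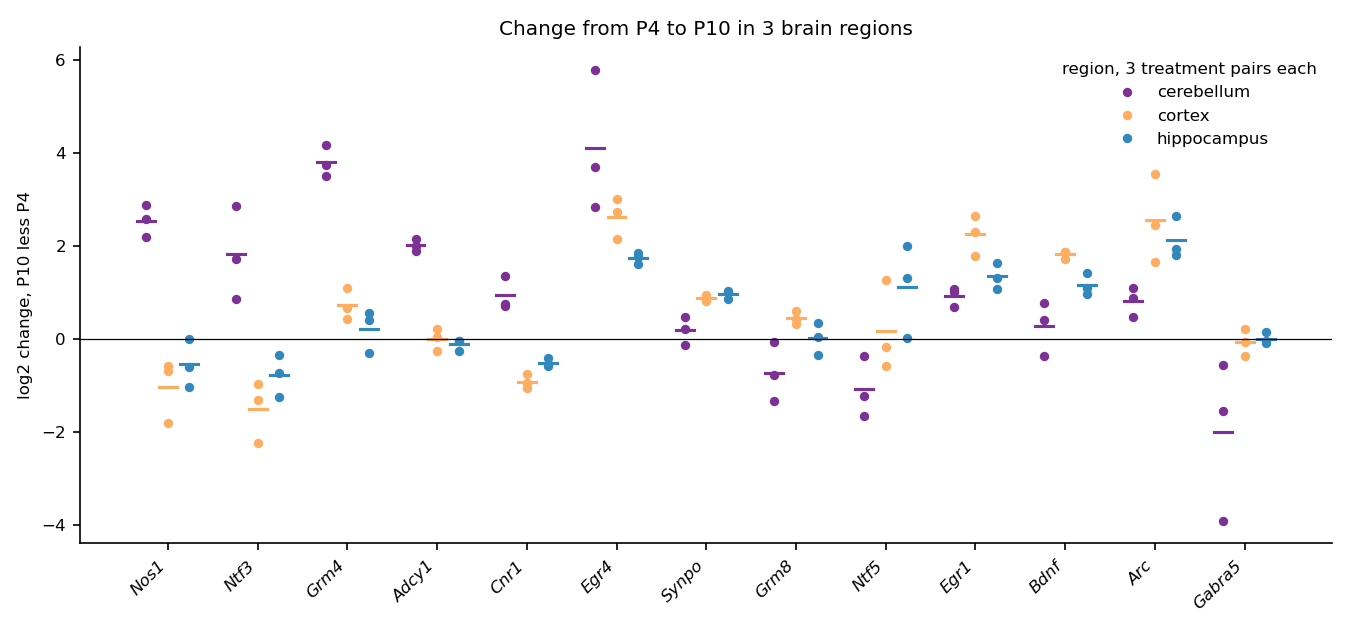
Log2 change from P4 to P10 (y axis) of the genes with the largest differences between regions, in cerebellum, cortex and hippocampus. Points are the 3 treatment pairs and bars their mean; *Nos1* and *Ntf3* went up in all cerebellum pairs and not in the cortex pairs, and *Arc* and *Bdnf* had larger changes in cortex.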

How the data were processed

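The authors deposited raw CT values (a unit of its own class, other), 1 well per gene and pool, with a manual threshold and a detection limit of 35, and no normalization. Gene names follow the order of the array. Listed fold values of the study, matched within 2%, pointed to the named well alone for 52 of the 84 genes, also occurred in other wells for 9 and matched in part for 1 (*Junb*). The other 22 are named by place only, among them *Gria1*, *Gria3*, *Gria4*, *Igf1*, *Ppp2ca*, *Reln* and *Pick1*, which could not be told apart from *Pim1*. Levels (log2) were fitted with limma 3.58.1 in R 4.3.3, with treatment as a block and Benjamini-Hochberg adjustment over 84 genes, two-sided. The region fit used the 9 differences of 18 pools. The CT of repeated control wells had an SD of 0.058 (reverse transcription) and 0.106 (PCR). Described genes were the called genes with the largest changes, the called members of the lists, glutamate receptors, and the largest region differences. Some called genes are not reported here by name. Members and lists were chosen with earlier results of these data known. Alternatives were other references, CT filters, the block, all 27 pools, a fold threshold and leaving out each treatment. Fold changes between treatments, which the authors computed, served only to name the wells.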

Additional observations from a re-analysis of the deposited data

Results flagged for a closer look

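Between cerebellum and cortex the log2 change from P4 to P10 differed, by the limma test of the difference, for *Nos1* (3.58), *Ntf3* (3.34), *Grm4* (3.08), *Adcy1* (2.02) and *Cnr1* (1.86), which were above cortex, and for *Gabra5* (-1.94), *Arc* (-1.74), *Bdnf* (-1.55), *Egr1* (-1.33) and *Grm8* (-1.19), which were below it. Between cerebellum and hippocampus it differed for *Grm4* (3.59), *Nos1* (3.09), *Ntf3* (2.59), *Egr4* (2.37) and *Adcy1* (2.13), which were above hippocampus, and for *Ntf5* (-2.20), *Gabra5* (-2.01), *Arc* (-1.32), *Bdnf* (-0.89) and *Synpo* (-0.78), which were below it. The genomic DNA control well, which no comparison uses, gave a CT of 33.81 in the BIF pool of P4 and stayed at the limit of 35 in the other 5 cerebellum pools.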

How the results depend on the processing

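The 40 genes higher at P10 became 15 with *Gapdh* alone, 14 with the median CT, 23 with the PCR control and 14 when a call with each of the 5 references was asked for, a rule chosen after seeing the data; leaving out each treatment gave 14 to 44. The 5 lower genes became 12 with the median CT, 10 with the PCR control and 10 with all 27 pools, and 4 to 6 without each treatment. Genes at least 1.5-fold changed in every pair went from 26 to 17 with the median CT and to 13 at 2-fold. The 51 genes that differed from cortex became 31 with the PCR control and 33 to 41 without each treatment. The 51 that differed from hippocampus became 30 with *Gapdh*, 28 with the PCR control and 31 to 48 without each treatment. Without the treatment block 42 genes were higher and 6 lower, and with a block the region counts were 54 and 52. Deviations of P4 and P10 pools of 1 treatment correlated across genes with r = 0.276 in GF, -0.0064 in CONV and 0.336 in BIF, and genes are not independent replicates. Log2 changes turned to -0.047 for *Bdnf*, -0.27 for *Grm2* and -0.13 for *Synpo* with *Gapdh*, and with the median CT to -0.23 for *Bdnf*, -0.45 for *Grm2*, -0.092 for *Grm5*, -0.058 for *Prkca*, -0.022 for *Prkg1*, -0.32 for *Synpo* and -0.028 for *Timp1*. With the PCR control *Grm2* was at -0.14 and *Synpo* at -0.0078, and without each treatment *Grm2* lay between -0.10 and 0.24. The causes were not tested. The other comparisons were counted once for each named gene and alternative. Of these, 437 kept direction and stayed called or not called as before, 109 kept direction but lost the call and 20 gained it. With 1 well per gene and pool, changes near the residual SD of 0.197 could not be resolved.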
